A study of Homo sapiens with 4 samples.

Results

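The GINS complex and the replicative DNA polymerases form the core of the machine that copies chromosomes, and 10 genes of it were followed here in HCT116 cells grown as spheroids or as a monolayer. The genes were GINS1, GINS2, GINS3, GINS4, POLA1, POLA2, POLD1, POLE, POLE2 and PCNA, and the probe sets taken were those whose annotation gave 1 symbol that was in this list. This rule found all 10 genes and 18 of the 54675 probe sets. HCT116 is an established cell line from a human colon carcinoma. It was used as HCT116 wt and as HCT116 wt/GFP, and the labels do not say how GFP was introduced or whether the cells are a clone. Both were cultured flat, as a monolayer, and as spheroids, in which the cells form rounded clumps, and each of these 4 combinations had 1 Affymetrix array. No treatment, time or passage was given for any group. The study used the arrays to characterise gene expression in these cultures.

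As background, chromosomes are copied in S phase, and only in cells that cycle. The 4 GINS subunits bind CDC45 and the MCM2-7 ring, and together these form the active helicase that opens the DNA ahead of the fork. Polymerase alpha, with its bound primase, lays down the first stretch of each new strand. Polymerase epsilon then extends the leading strand and polymerase delta the lagging strand, both held on the DNA by PCNA, a ring-shaped sliding clamp that clamp loaders place around the double helix. Many genes of this machine are transcribed under the control of E2F factors and are low in cells that have left the cycle.

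The promoter stretches of 6 of the genes are given first, because the genes differed widely in the size of their change although their products work at one fork. GINS1, GINS2, POLA2 and POLE2 are among the genes that fell by more than 2-fold, and POLE and POLD1 had the smallest values. All are from RefSeq with build GRCh38.p14, are 5′ to 3′ on the strand of the gene, and run from 250 bases before the annotated start to 20 bases from it. They lie at chr20:25407423-25407692 for GINS1 (plus strand), chr16:85688935-85689204 for GINS2 (minus strand), chr11:65261712-65261981 for POLA2 (plus strand), chr14:49688195-49688464 for POLE2 (minus strand), chr12:132687323-132687592 for POLE (minus strand) and chr19:50384073-50384342 for POLD1 (plus strand). Capitals mark exact matches, on either strand, to TTTCGCGC or TTTGGCGC, which are forms of the E2F motif, and to CCAAT, the motif bound by NF-Y.
GINS1: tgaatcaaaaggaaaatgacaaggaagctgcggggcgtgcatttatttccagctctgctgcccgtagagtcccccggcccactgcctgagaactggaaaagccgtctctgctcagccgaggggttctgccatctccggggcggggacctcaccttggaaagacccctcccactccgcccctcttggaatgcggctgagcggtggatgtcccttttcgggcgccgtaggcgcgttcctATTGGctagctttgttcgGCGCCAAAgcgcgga
GINS2: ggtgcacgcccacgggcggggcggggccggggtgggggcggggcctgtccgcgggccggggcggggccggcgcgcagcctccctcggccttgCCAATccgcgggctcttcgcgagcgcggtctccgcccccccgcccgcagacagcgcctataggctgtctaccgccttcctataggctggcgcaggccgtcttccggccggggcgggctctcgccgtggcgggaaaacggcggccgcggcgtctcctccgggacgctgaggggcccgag
POLA2: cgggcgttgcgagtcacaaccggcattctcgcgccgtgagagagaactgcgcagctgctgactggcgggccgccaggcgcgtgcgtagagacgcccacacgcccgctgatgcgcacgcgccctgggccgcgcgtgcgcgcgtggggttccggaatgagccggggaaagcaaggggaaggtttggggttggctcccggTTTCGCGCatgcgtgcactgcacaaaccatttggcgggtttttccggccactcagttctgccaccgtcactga
POLE2: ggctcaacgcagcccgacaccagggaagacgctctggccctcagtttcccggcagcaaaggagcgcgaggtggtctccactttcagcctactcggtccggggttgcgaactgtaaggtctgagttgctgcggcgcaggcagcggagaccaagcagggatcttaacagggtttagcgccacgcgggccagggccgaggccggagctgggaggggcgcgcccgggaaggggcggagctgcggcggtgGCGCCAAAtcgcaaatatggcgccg
POLE: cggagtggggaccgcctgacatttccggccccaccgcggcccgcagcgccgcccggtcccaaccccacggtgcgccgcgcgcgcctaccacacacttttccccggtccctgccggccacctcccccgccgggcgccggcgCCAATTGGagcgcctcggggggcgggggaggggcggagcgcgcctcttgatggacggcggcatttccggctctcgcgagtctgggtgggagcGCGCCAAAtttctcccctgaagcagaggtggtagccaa
POLD1: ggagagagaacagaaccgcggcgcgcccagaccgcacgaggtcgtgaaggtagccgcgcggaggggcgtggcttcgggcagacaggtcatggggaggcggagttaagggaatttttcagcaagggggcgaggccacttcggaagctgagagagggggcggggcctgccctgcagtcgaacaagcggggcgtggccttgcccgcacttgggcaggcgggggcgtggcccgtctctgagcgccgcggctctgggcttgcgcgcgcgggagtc
Windows of 300 bases, from 250 before the start to 50 from it, were found for 9 of the 10 genes in the RefSeq table, and not for GINS4. TTTGGCGC was present on either strand in 4 of these 9 windows, compared with 0.652% of all 35116 windows of that length. The matches lay from 6 to 13 bases after the start in GINS1, from -137 to -130 in POLA1, from -18 to -11 in POLE and from -5 to 3 in POLE2, counting the first transcribed base as 1. TTTCGCGC was present in 1 window, that of POLA2, from -53 to -46, compared with 0.515% of all windows. At least 1 of these 2 forms was thus in 5 of 9 windows, compared with 1.15% of all. CCAAT was in 5 of 9 windows and in 34.6% of all, with 3 matches in PCNA, and in POLE its 2 matches overlapped on opposite strands. TTTGAA, the CHR motif of late cell cycle genes, was in 0 of 9 windows and in 15.2% of all. The windows of the 9 genes had a GC content from 56.3% to 78.3%, and the median of all windows was 58.7%. These are descriptions of letters. An E2F form was present in GINS1, POLA1, POLA2 and POLE2, which fell, and in POLE, which did not pass the test. GINS2, GINS3 and PCNA, which fell, and POLD1, which did not pass, had neither form in this window. Only these 2 exact forms were searched, so a window without them can hold other forms of the E2F motif. A link between motifs and changes was not tested.

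**Figure D1:**
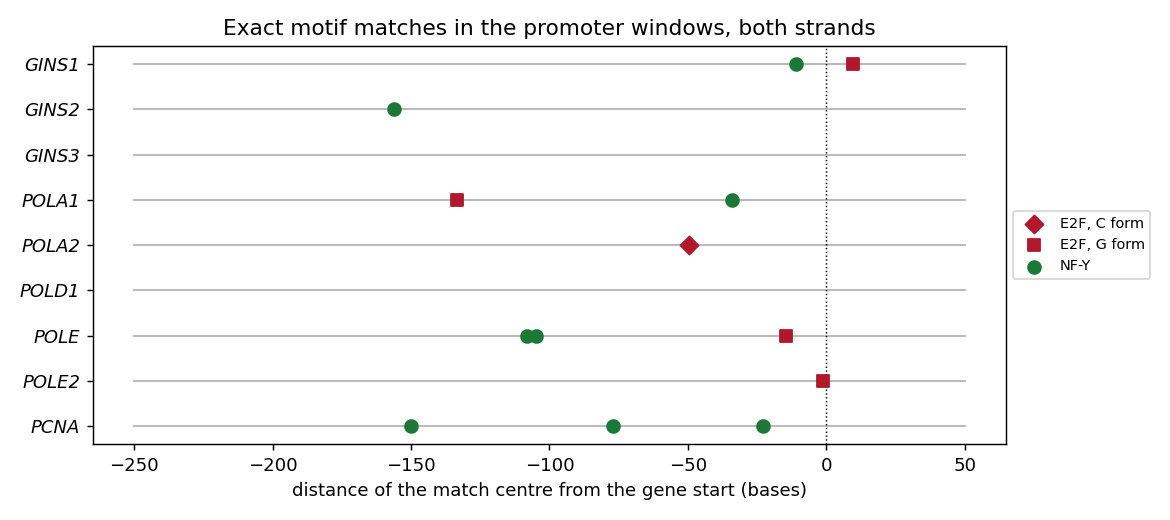
Position of exact motif matches in the promoter windows of 9 genes, as the distance in bases of the centre of each match from the annotated gene start, marked by the dotted line. Red symbols are the 2 E2F forms and green circles are CCAAT. The E2F forms are seen in GINS1, POLA1, POLA2, POLE and POLE2, and PCNA has 3 CCAAT matches.

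Values below are MAS5 signals on a linear scale, 1 number for each probe set and array, and changes are differences in log2(signal + 14.0) between spheroids and monolayer. The number of arrays, 2 for each culture and 1 for each line within it, limits the precision. Over all probe sets the median signal was 48.0 to 48.8 in monolayers and 67.3 to 68.4 in spheroids, although all arrays had a trimmed mean of 500.1. The median log2 change of all 14349 genes tested was 0.23, and it became 0.02 with quantile normalization, -0.17 with arrays centred on their medians and -0.37 when scaled to the 18 hybridisation controls. The ratio of the 3′ to the 5′ signal of ACTB was 1.30 to 1.32 in monolayers and 1.73 to 1.76 in spheroids, and that of GAPDH was 0.882 to 0.897 in monolayers and 0.868 to 0.951 in spheroids. All 9 epithelial markers passed the filter on low signals, with EPCAM signals from 19611 to 29302. CDX2, VIL1 and CEACAM5 were dim, with signals of 33.1 to 81.6, 16.1 to 90.7 and 17.5 to 204. Of 10 markers of other cell types 5 passed. The mean log2 values in monolayers of VIL1, 5.16, and COL3A1, 4.90, were below the filter threshold of 5.48. These markers thus passed only because they were higher in spheroids. The summed signal of all 10 was 576 to 658 in monolayers and 2767 to 4253 in spheroids, of which COL1A1 gave 303 to 338 and 2275 to 3780, whereas PTPRC, CD14, VWF, COL1A2 and ALB did not pass. The part of these differences in the results below was not tested. In RNA from whole cultures, fewer replicating cells and less RNA per cell cannot be told apart.

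In spheroids, 8 of the 10 genes fell and none rose (limma, adjusted p under 0.05, 2 arrays per culture). Of all genes tested, 18.5% fell and 30.6% rose. A fall of at least 2-fold was met by 6 of the 10, compared with 5.04% of all genes. The median log2 change of the 10 genes was -1.48, which was -1.70 relative to the median of all genes. For each of the 10, both spheroid arrays lay below both monolayer arrays, an order found in 26.5% of all genes. The sizes differed widely, from -2.40 for GINS2 to -0.17 for POLD1. Of all 14349 genes in order from the most negative change, GINS2 was at place 14, POLE2 at 22, GINS3 at 109, POLA2 at 121, GINS1 at 224 and GINS4 at 250. POLA1 stood at place 963, PCNA at 1022, POLE at 2737 and POLD1 at 4235.

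**Figure D2:**
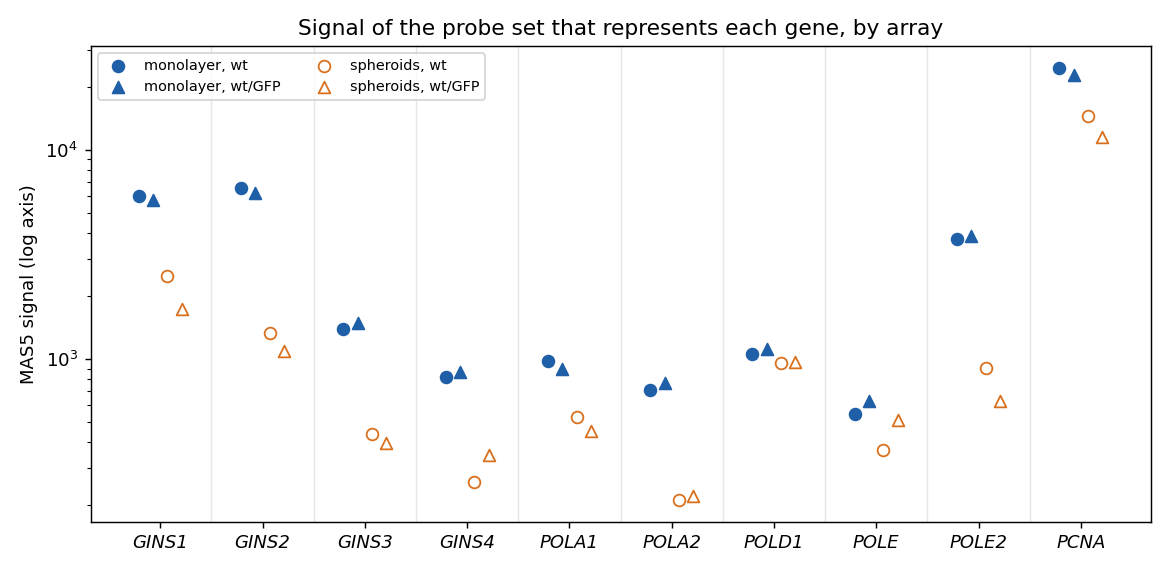
MAS5 signal (log axis) of the probe set that represents each of the 10 genes on each of the 4 arrays. Filled blue symbols are monolayers and open orange symbols are spheroids; circles are wt and triangles wt/GFP. The spheroid symbols lie below the monolayer symbols for every gene, with a wide gap for GINS2 and POLE2 and a narrow one for POLD1.

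All 4 GINS genes fell. GINS2, a subunit of the helicase core, had signals of 6607 and 6242 in wt and wt/GFP monolayers and of 1335 and 1095 in their spheroids. The spheroid signal was thus 20.2% of the monolayer signal in wt and 17.5% in wt/GFP, and the arrays of the 2 cultures stood far apart. Its log2 change was -2.40 ± 0.12 (SE, limma, adjusted p = 3.47e-15). GINS3 had signals of 1399 and 1488 in monolayers and of 436 and 399 in spheroids. Its change was -1.76 ± 0.15 (adjusted p = 2.12e-10), and both lines were close to each other in either culture.

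GINS1, another subunit of the complex, had signals of 6052 and 5744 in monolayers and of 2486 and 1736 in spheroids. Its spheroid arrays differed more between the lines than its monolayer arrays did, and the change was -1.28 in wt and -1.72 in wt/GFP (fitted -1.50 ± 0.12, limma adjusted p = 6.96e-11). GINS4 had signals of 822 and 866 in monolayers and of 258 and 347 in spheroids. It went the other way between the lines, with a change of -1.62 in wt and -1.29 in wt/GFP (fitted -1.45 ± 0.18, adjusted p = 1.10e-07). With the brightest probe sets, the log2 change of GINS2 minus that of GINS1 was -1.02 in wt and -0.78 in wt/GFP, and GINS2 minus GINS4 gave -0.67 and -1.21. These differences between genes were not tested and depend on the probe set. With the mean of the probe sets that passed the filter, GINS2 changed by -1.31 (limma, adjusted p = 0.00276) and GINS4 by -0.71 (adjusted p = 0.0332), beside -1.50 for GINS1. The mean of GINS4 leaves out its probe set 240778_at, which was below the filter and had a change of 0.49. Without probe sets ending in _s_at, _x_at or _a_at GINS2 changed by -1.53 (limma, adjusted p = 0.00244). In the fit of the brightest probe sets the changes of GINS1 and GINS4 lay within their standard errors of each other.

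Both genes of polymerase alpha fell. POLA1, the catalytic subunit, had signals of 974 and 891 in monolayers and of 530 and 454 in spheroids. That is 54.5% of the monolayer signal in wt and 51.0% in wt/GFP, a fall of 0.91 ± 0.16 log2 units (limma, adjusted p = 2.36e-05). POLA2, the accessory B subunit, had signals of 708 and 771 in monolayers and of 212 and 222 in spheroids. Its change was -1.71 ± 0.19 (adjusted p = 2.47e-08), and it was nearly the same in wt (-1.68) as in wt/GFP (-1.73). The change of POLA2 minus that of POLA1 was -0.82 log2 units in wt and -0.78 in wt/GFP, a difference that was not tested and that rests on 1 probe set of POLA2. With the mean of its probe sets POLA2 changed by -0.94 (adjusted p = 0.0136), close to POLA1, and without the probe sets ending in _s_at, _x_at or _a_at by -0.30 (adjusted p = 0.544).

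In polymerase epsilon, the 2 subunits followed here had unlike values. POLE2, its accessory B subunit, through which the enzyme binds the GINS complex, had signals of 3764 and 3892 in monolayers and of 905 and 633 in spheroids, and its change was -2.04 in wt and -2.59 in wt/GFP (fitted -2.32 ± 0.14, limma adjusted p = 1.02e-13). POLE, the catalytic subunit, had signals of 543 and 629 in monolayers and of 367 and 511 in spheroids. Both spheroid arrays lay below both monolayer arrays, as in 26.5% of all genes, but the wt/GFP spheroid array was close to the wt monolayer array. The value of POLE was -0.42 ± 0.18, with an adjusted p = 0.0505 just above the threshold. It passed with quantile normalization (-0.66, limma adjusted p = 0.00641), with median-centred arrays (-0.81, adjusted p = 0.000379) and when scaled to the hybridisation controls (-1.01, adjusted p = 0.00625). Its value also moved when a single spheroid array was left out. The value was -0.19 without the wt spheroid array (adjusted p = 0.377) and -0.65 without the wt/GFP spheroid array (adjusted p = 0.0149). The change of POLE2 minus that of POLE was -1.49 log2 units in wt and -2.30 in wt/GFP.

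POLD1, the catalytic subunit of polymerase delta, had the smallest value of the 10. Its signals were 1054 and 1111 in monolayers and 956 and 971 in spheroids, so the spheroid signal was 90.7% of the monolayer signal in wt and 87.4% in wt/GFP. The arrays of each culture lay close together, with both spheroid arrays below both monolayer arrays, as in 26.5% of all genes. The value of -0.17 ± 0.14 did not pass (limma, adjusted p = 0.346). It passed after median centring, at -0.56 (adjusted p = 0.00149), and gave adjusted p = 0.158 after quantile normalization and adjusted p = 0.0726 when scaled to the hybridisation controls. PCNA, the sliding clamp that serves both delta and epsilon, had signals of 24774 and 22781 in monolayers and of 14516 and 11484 in spheroids. It was 58.6% of the monolayer signal in wt and 50.4% in wt/GFP, a fall of 0.88 ± 0.13 log2 units (adjusted p = 1.25e-06).

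**Figure D3:**
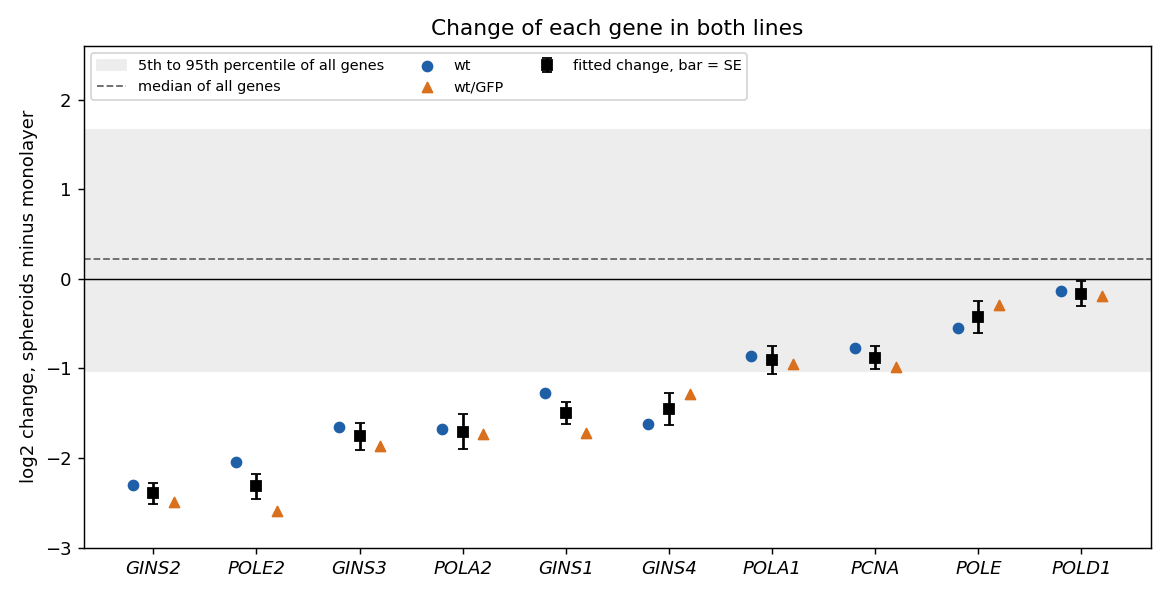
Log2 change from monolayer to spheroids for each gene, ordered by size. Blue circles are wt, orange triangles wt/GFP, and black squares the fitted change with its moderated standard error. The grey band spans the 5th to 95th percentile of all genes, -1.03 to 1.66, and the dashed line is their median, 0.23. GINS2, POLE2, GINS3, POLA2, GINS1 and GINS4 lie below the band, and POLA1, PCNA, POLE and POLD1 lie inside it.

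The level of each gene was also compared between the lines. In the test of wt/GFP against wt, 0 of the 10 genes passed in limma, compared with 0.0279% of all genes, and 1 of the 10 had an unadjusted p under 0.05. The smallest adjusted p was 0.722. This count is at the background share and sets the genes apart from no others, and on the spheroid arrays alone POLE2 gave 905 in wt and 633 in wt/GFP, GINS1 2486 and 1736, and POLE 367 and 511. The change in spheroids was more negative in wt/GFP than in wt for 8 of the 10 genes, compared with 51.1% of all genes, the exceptions being GINS4 and POLE. With 1 array for each line and culture this difference could not be tested. Its size was between 0.05 and 0.55 log2 units, and it was widest for POLE2. The hybridisation controls, spiked transcripts of no cellular origin, were higher on spheroid arrays by a median of 0.39 log2 units in wt and 0.78 in wt/GFP. The part of the controls in the difference between lines was not tested.

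Of the 18 probe sets, 17 passed the filter on low signals and 10 of these fell when each probe set was tested alone, none rose and 7 did not pass. Over all probe sets tested alone, 14.6% fell and 25.5% rose. Both probe sets of GINS3 fell, with changes of -1.76 for 45633_at and -2.00 for 218719_s_at. For GINS2, the dim probe set 243136_at fell from signals of 165 and 165 to 61.4 and 36.9 (-1.53 ± 0.37, limma, adjusted p = 0.00168). The dimmest, 1557595_at, gave 49.8 and 128 in monolayers and 118 and 53.3 in spheroids, in opposite directions in the 2 lines.

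The genes GINS4 and POLA2 also had probe sets that did not pass. For GINS4, 235029_at went from 159 and 142 to 68.6 and 106 (-0.72, limma adjusted p = 0.0929), and 1554356_at from 90.4 and 62.1 to 82.0 and 75.0 (0.05, adjusted p = 0.934). Its 240778_at was below the filter. For POLA2, 236546_at went from 98.7 and 72.1 to 49.9 and 35.6 (-0.81, adjusted p = 0.162) and 244575_at from 84.1 and 106 to 61.7 and 88.9 (-0.30, adjusted p = 0.576). Every probe set of GINS2, GINS4 and POLA2 that did not pass was dim, with a highest signal of 159. The calls of POLA2 and GINS4 thus each rest on 1 bright probe set, and GINS1, POLA1, POLD1, POLE, POLE2 and PCNA had 1 probe set each.

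**Figure D4:**
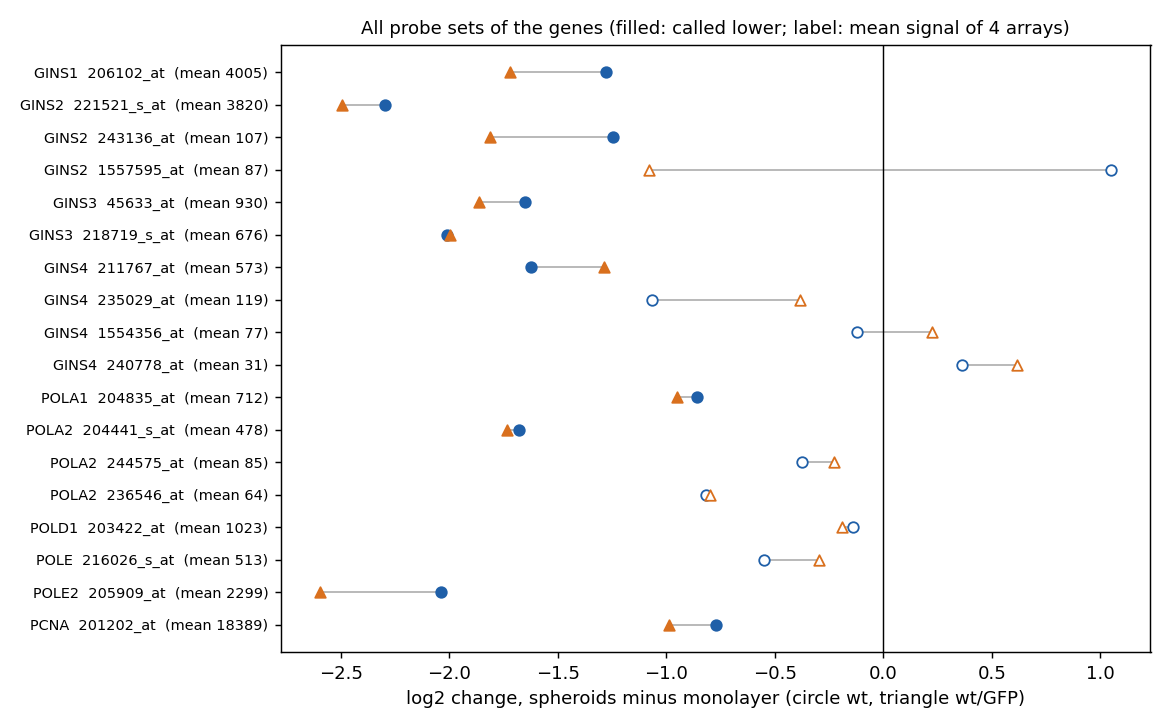
Log2 change of all 18 probe sets in wt (circles) and wt/GFP (triangles), with the mean signal of the 4 arrays beside each name. Filled symbols fell when probe sets were tested alone and open symbols did not pass or were below the filter. The bright probe sets lie to the left of 0, and the open ones of GINS2 and GINS4 lie on both sides of 0.

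The other subunits of the same 3 polymerases mostly fell as well, 6 of 7, and 1 rose, beside 18.5% and 30.6% of all genes. POLE3, a small histone-fold subunit of polymerase epsilon, had signals of 8120 and 7512 in monolayers and of 2708 and 2290 in spheroids, and fell by 1.64 ± 0.11 (limma, adjusted p = 3.27e-12). Its partner POLE4 fell by 1.09 ± 0.19, with -1.50 in wt/GFP and -0.67 in wt. PRIM1, the catalytic primase subunit, fell by 1.60 ± 0.12, and PRIM2, the large primase subunit, had a change of -0.64 ± 0.14. In polymerase delta, POLD2 fell with a change of -1.02 ± 0.13 and POLD3 with -0.89 ± 0.17, whereas the catalytic POLD1 did not pass. PRIM2 and POLD3 were named after their values were seen. POLD4, the smallest subunit of polymerase delta, was the one that rose, from signals of 301 and 310 to 614 and 435 (0.73 ± 0.20, adjusted p = 0.00307). Its value stayed positive but did not pass with quantile normalization (0.46, adjusted p = 0.0793), with median-centred arrays (0.34, adjusted p = 0.167) or scaled to the hybridisation controls (0.14, adjusted p = 0.774), nor without the wt spheroid array. The change of POLE3 minus that of POLE was -1.03 log2 units in wt and -1.41 in wt/GFP, and the change of POLD2 minus that of POLD1 was -0.70 and -1.01. These differences between subunits, too, were not tested.

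Of the direct partners of GINS in the helicase, CDC45 and MCM2 to MCM7, 7 of 7 fell, with a median of -1.93. Of all genes, 18.5% fell. The change was -2.14 ± 0.12 for MCM5, -2.01 ± 0.12 for MCM2, -1.94 ± 0.18 for CDC45 and -1.93 ± 0.12 for MCM7, values between the changes of GINS2 and GINS3. Of 12 factors that activate the helicase or travel with the fork, 11 fell, with a median of -1.20. MCM10, needed to start the helicase, fell by 2.41 ± 0.14. The changes of CLSPN and TIPIN, of the checkpoint at the fork, were -1.92 ± 0.21 and -1.90 ± 0.12, and that of WDHD1, which links the helicase to polymerase alpha, was -1.49 ± 0.18. MTBP did not pass (-0.23, limma adjusted p = 0.550) and was named after its value was seen. When scaled to the hybridisation controls it passed at -0.82 (adjusted p = 0.0488).

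Of 9 clamp loaders and unloaders that put PCNA on DNA or take it off, 7 fell and none rose, with a median of -1.34. The shares of all genes, for this list and those below, were 18.5% that fell and 30.6% that rose. The change was -1.80 ± 0.14 for DSCC1, -1.57 ± 0.13 for RFC3, -1.51 ± 0.13 for RFC5 and -1.34 ± 0.12 for RFC2. The 2 that did not pass were named after their values were seen. ATAD5 had -0.67 (limma, adjusted p = 0.0655), and it passed under each of the 3 other scalings, at -1.06 to -1.26 (adjusted p = 0.00472 or less). CHTF18, a component of an alternative clamp loader, had 0.12 (adjusted p = 0.605), and its sign turned under other scalings. Of 6 tested genes of PCNA partners, 6 fell, with a median of -1.20. CHAF1B and CHAF1A, of the chromatin assembly factor, changed by -1.87 ± 0.19 and -1.11 ± 0.15, UHRF1 by -1.48 ± 0.11 and PCLAF by -1.28 ± 0.12, beside -0.88 for PCNA itself. A further gene of this list, POLDIP2, was not analysed here. Of 9 genes for lagging strand maturation and binding of single strands, 8 fell, with a median of -1.03. The flap nuclease FEN1 changed by -1.65 ± 0.11, the ligase LIG1 by -1.17 ± 0.16, RPA2 by -1.12 ± 0.12 and DNA2 by -1.09 ± 0.21. RNASEH2B, named after its value was seen, did not pass (-0.34, adjusted p = 0.238), but passed under each of the 3 other scalings, at -0.68 to -0.93 (adjusted p = 0.0189 or less).

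The polymerases of repair, translesion synthesis and mitochondria lay on both sides of 0. Of 14 such genes 2 fell and 4 rose, beside 18.5% and 30.6% of all genes. Their median change was 0.28, close to that of all genes, and it became -0.11 with median-centred arrays and -0.31 when scaled to the hybridisation controls. POLQ, the polymerase of end joining through short homologies, fell from signals of 614 and 563 to 265 and 329 (-0.96 ± 0.19, limma adjusted p = 0.000142). MAD2L2, a subunit of polymerase zeta, changed by -0.36 ± 0.12, a call lost with quantile normalization (-0.30, limma adjusted p = 0.0538). MAD2L2 passed with median-centred arrays (-0.75, limma adjusted p = 7.11e-06) and when scaled to the hybridisation controls (-0.95, adjusted p = 0.0192). POLI, a translesion polymerase, rose from 561 and 568 to 844 and 1062 (0.73 ± 0.16, adjusted p = 0.000284), and did not pass with median-centred arrays (0.34, adjusted p = 0.0741) or when scaled to the hybridisation controls (0.14, adjusted p = 0.790). POLL, a gap-filling polymerase of end joining, rose from dim monolayer signals of 35.7 and 51.7 to 76.4 and 245 (1.42 ± 0.42, adjusted p = 0.00627), and did not pass when scaled to the hybridisation controls (adjusted p = 0.157). POLM, its relative, gave 39.2 and 20.5 in monolayers and 83.1 and 142 in spheroids. Its mean log2 value in monolayers, 5.42, was below the filter threshold of 5.48, so it was tested only because it was high in spheroids, and its call carries no weight. Without POLM, 3 of 13 rose and 2 fell. With scaling to the hybridisation controls none of the 14 rose and 4 fell, while of all 14349 genes 992 rose and 3754 fell.

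**Figure D5:**
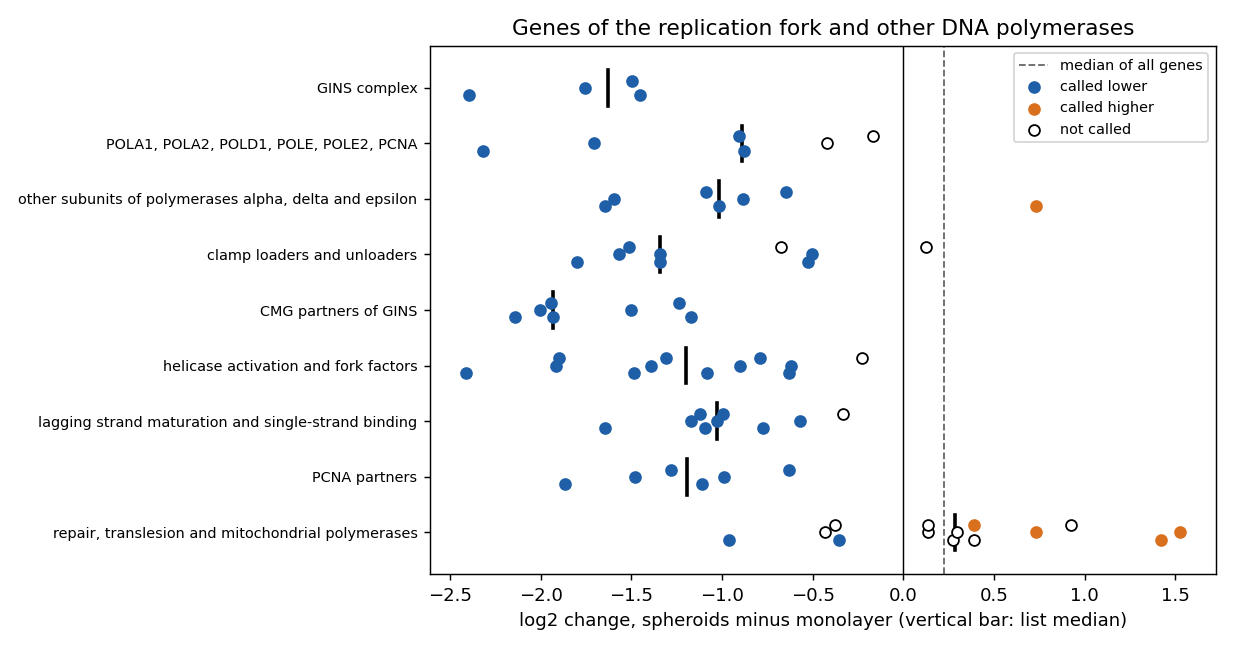
Log2 change from monolayer to spheroids of each tested gene, by list, with blue for genes that fell, orange for genes that rose and open circles for genes that did not pass. Vertical bars are list medians and the dashed line is the median of all genes, 0.23. The lists of the replication fork lie mostly between -2.5 and -0.5, and the repair, translesion and mitochondrial polymerases lie on both sides of 0, with a median of 0.28.

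The mean profile of the 10 genes changed by -1.29 in wt and -1.41 in wt/GFP. The 5 genes outside the list whose centred log2 values on the 4 arrays lay closest to it were NUP155, a nuclear pore scaffold protein, IFRD2, MRPL49, a protein of the mitochondrial ribosome, TIMM21, of protein import into mitochondria, and TAF5, a subunit of the TFIID complex. Their root mean square distances were from 0.0086 to 0.029 log2 units, over 4 arrays of 2 lines. NUP155 changed by -1.28 in wt and -1.41 in wt/GFP, and the 5 changed by between -1.35 and -1.30 in the fit.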

How the data were processed

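Total RNA of both forms of HCT116, in both cultures, was labelled with biotin and hybridised to 4 arrays, per the labels' protocols. The deposited table holds intensities on a linear scale, which are MAS5 signals per the submitters' processing notes, for which the sources used here give no version or settings. Every array had a 2% trimmed mean of 500.1, so a change in total RNA would not be visible. Of 54675 probe sets, 41091 had 1 symbol in the platform annotation, 1801 had several and 11721, beside 62 controls, had none. Signals were taken as log2(signal + 14.0), the pseudocount being the 25th percentile. Probe sets with a mean above the 40th percentile (5.48, a signal of 30.6) were kept, and each gene took its brightest, which gave 14349 genes. Limma 3.58.1 in R 4.3.3 fitted culture and cell line as additive terms with trend moderation (1 residual and 25.9 prior degrees of freedom), so each SE rests mainly on other genes. A gene was called at a two-sided Benjamini-Hochberg adjusted p under 0.05 over all genes. In a separate fit, 32768 probe sets were tested alone.

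The labels pair the arrays by cell line. As a check, the line differences in monolayers and in spheroids had a correlation of 0.00684 across genes. A correlation this small gives the pairing no backing beyond the labels. Nothing states that arrays came from separate cultures. The p-values set each change against a disagreement between 2 lines that is taken mainly from other genes and that may be technical. Scan dates were not used here. The procedure was tested on simulated data with independent noise and no shift of whole arrays, so that test does not bear on the choice of scaling. The members, lists and tests were chosen with earlier results of these data known. All 10 genes were named, and in each other list up to 4 called genes of largest change, as well as those called against their list. Genes most like the members were the 5 nearest by root mean square distance. Alternatives were other scalings, pseudocounts, filters, choices of probe sets, moderation and thresholds, no cell line term, and leaving out each array.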

Additional observations from a re-analysis of the deposited data

Results flagged for a closer look

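Among the 18 probe sets, 2 moved in opposite directions in the 2 lines, each with 1 array per line and culture, so the difference was not tested. GINS2 probe set 1557595_at changed by 1.05 log2 units in wt and by -1.08 in wt/GFP, a difference of -2.13, while the bright GINS2 probe set changed by -2.30 and -2.50. GINS4 probe set 1554356_at changed by -0.12 in wt and 0.23 in wt/GFP, a difference of 0.35. No group had the 4 arrays needed to look for a single outlying sample.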

How the results depend on the processing

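The number of the 10 genes that fell was 8 with the settings reported, 9 with quantile normalization or when scaled to the hybridisation controls, 10 with median-centred arrays, 7 of 9 without probe sets ending in _s_at, _x_at or _a_at, 6 with a change of at least 2-fold, and 8 to 9 when single arrays were left out. None rose under any alternative run, and no change of a member turned sign. Without the replicate block, that is without the cell line term, it was 8, and this fit changed no call of a member. Without trend moderation it was also 8, but the adjusted p of these 8 genes rose to between 0.0290 and 0.0416 (limma). For GINS2 the adjusted p was 4.97e-88 with the stricter filter and 0.0290 without trend, so its size depends strongly on the filter and the moderation. POLA2 lost its call without shared probe sets (-0.30, adjusted p = 0.544), where a dim probe set stands for it. Besides the 3 scalings, POLE passed with the median signal as pseudocount (adjusted p = 0.0495), the mean of probe sets (0.0447), the stricter filter (0.0428) and without the wt/GFP spheroid array (0.0149), and POLD1 passed after median centring. Of all genes tested, 2657 of 14349 fell with the settings reported and 3010 of 14351 with quantile normalization. After median centring 4639 of 14349 fell and 2348 rose. After scaling to the hybridisation controls 3754 of 14349 fell and 992 rose. Without trend 1174 fell and 2646 rose, 723 fell and 2118 rose by at least 2-fold, and 1700 of 11233 fell without shared probe sets. Higher genes made up 62.3% of calls as reported, 52.9% with quantile normalization, 33.6% with median-centred arrays and 20.9% when scaled to the hybridisation controls. Of the other polymerase subunits, 3 fell without trend, and 0 rose under the 3 other scalings, without trend and at 2-fold; leaving out single arrays gave 0 to 1. At least 2-fold left 7 helicase activation and fork factors, 5 lagging strand genes and 0 repair polymerases that fell; without shared probe sets, 4 of 4 partners of GINS and 2 of 3 PCNA partners fell. Of the repair, translesion and mitochondrial polymerases, 4 fell with median-centred arrays and with scaling to the hybridisation controls, and 1 without trend, with 1 to 3 when single arrays were left out. The number that rose was 2 after quantile normalization, without a filter, without shared probe sets and at 2-fold, 1 after median centring, 0 after scaling to the hybridisation controls and without trend, and 1 to 6 when single arrays were left out. Fits with 3 arrays had no cell line term and assume that the lone array varies like the others. Dim probe sets, near the filter, limit what can be said of POLM, POLL and the second probe sets.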
